A study of Mus musculus with 10 samples.

Results

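The 10 genes described here are transcripts by which regulatory T cells are commonly recognised: the transcription factor genes Foxp3, Ikzf2 and Ikzf4, the receptor genes Il2ra, Tnfrsf18, Tnfrsf4, Ccr8, Izumo1r and Il1rl1, and the cytokine gene Il10. They were taken by symbol from a table of 24202 genes, and all 10 were found and kept by the filter on low values (a mean of at least 10 normalized counts), which left 16767 genes. RNA came from whole MB-49 tumors, grown from 100000 cells of this mouse bladder cancer line under the skin of the right flank and dissociated before bulk sequencing on day 10. Every mouse, control or treated, carried the hLrrc32 knock-in, that is the human form of the gene for GARP, a surface protein of activated regulatory T cells and platelets that holds latent TGF-beta. One group of 5 tumors, labelled PIIO-1 and named a4D3 in the sample titles, came from mice injected intraperitoneally with 200 ug of the GARP antibody PIIO-1 on days 6 and 9. The other 5 tumors came from mice labelled PBS. Mouse age and strain background were not in the labels, and nothing in them states that each tumor came from its own animal, so the p-values below measure the spread between these samples.

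Regulatory T cells restrain other immune cells and keep tolerance to self. Foxp3 is the factor that holds their identity, CD25 (the product of Il2ra) lets them take up IL-2 that effector T cells would use, and they accumulate in many tumors, where CCR8, GITR (Tnfrsf18) and OX40 (Tnfrsf4) are prominent on their surface. GARP is displayed by such cells after activation, and the comparison asks how the transcripts of the tumor differ after an antibody against it. Most of these genes are not exclusive to the lineage: OX40 and CD25 appear on activated conventional T cells, IL-10 is made by macrophages and B cells, and ST2 (Il1rl1) is abundant on mast cells, basophils and type 2 innate lymphoid cells. In RNA from a whole tumor, fewer cells of a type and less RNA per cell cannot be told apart.

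The libraries held 18843192 (PBS tumor 4) to 37581521 (PBS tumor 3) reads in genes, so that 3 reads correspond to 2.45 to 4.68 normalized counts. The lowest count of any member was 19 reads, for Ccr8 in PBS tumor 4. On the first principal component (25.4% of the variance) PIIO-1 tumor 5 lay farthest out, and on the second (14.6%) PBS tumor 4. PIIO-1 tumor 5 also had the highest share of reads from 4 globin genes (0.180%, against 0.0183% to 0.0745% in the other tumors) and from mitochondrial genes (3.12%, against 0.986% to 2.22%). Of the markers of the labelled tumor type, Upk3a, a uroplakin gene of differentiated urothelium, was at 0 to 3.27 normalized counts and Epcam at 10.9 to 29.6, while the 7 epithelial markers together summed to between 80888 and 101711. T cell markers were present in every tumor, with 13 of 13 kept.

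No member passed limma's test over all genes at an adjusted p of 0.05. Of the 16767 genes tested, 0% were called (0 genes), 5.63% (944 genes) had an unadjusted p under 0.05, and 0.853% (143 genes) had groups that did not overlap. Among the 10 members the counts were 0 called, 1 with an unadjusted p under 0.05 (Il1rl1) and 0 with groups that did not overlap. By edgeR on recovered reads 0 genes were called (975 at an unadjusted p under 0.05) and by DESeq2 3 genes (1012), none of them a member, and Il1rl1 was the 1 member under an unadjusted 0.05 in each. Values were compared as log2(normalized count + 1), PIIO-1 minus PBS, with limma's standard error (SE). Over all genes tested the median difference was 0.0027, with 8571 positive and 8196 negative, the background for the sign counts of gene lists below. The median difference of the members was 0.057, with 6 members positive and 4 negative. This median turned to -0.060 when PBS tumor 4 was left out and to -0.019 when PIIO-1 tumor 4 was. With both PBS tumor 4 and PIIO-1 tumor 5 omitted it was -0.14, and 4 members were positive and 6 negative. For 5 members (Foxp3, Il2ra, Tnfrsf18, Tnfrsf4 and Il10) the 95% interval of the difference lay inside a 1.5-fold change in both directions, and the intervals of 9 members included 0. The intervals of Foxp3, Il2ra and Tnfrsf4 reached 1.48-, 1.48- and 1.49-fold lower, so the count of 5 depends on that bound.

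**Figure D1:**
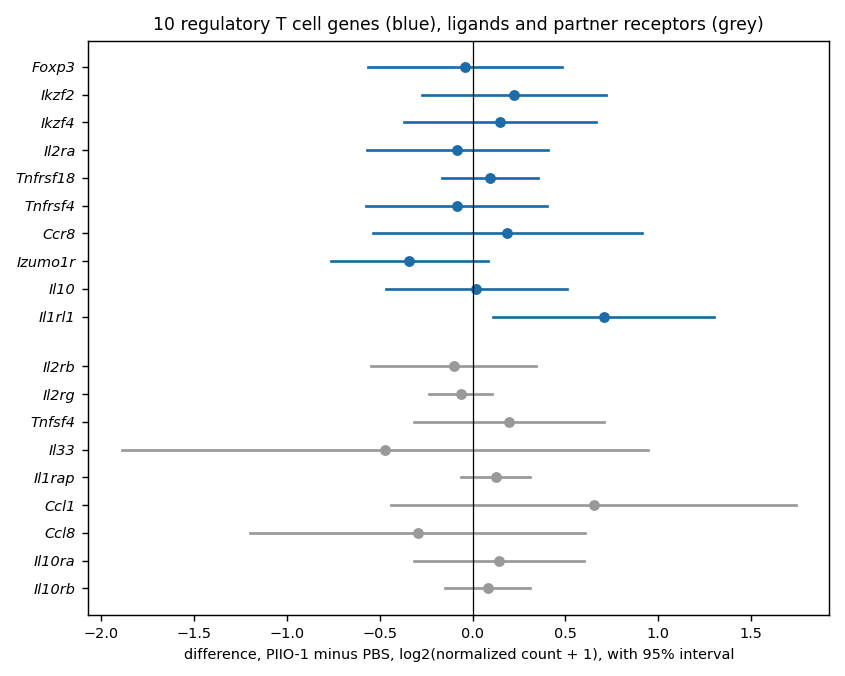
Differences between PIIO-1 and PBS tumors on the log2(normalized count + 1) scale (x axis), with 95% intervals from limma, for the 10 regulatory T cell genes (blue) and 9 ligand or partner receptor genes that passed the filter (grey). The Il1rl1 interval (0.11 to 1.30) is the one among the 10 members that does not include 0.

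Per kilobase of merged exon, the members fell into an order with a few close neighbours. Tnfrsf18 stood highest at 335 ± 48.7 normalized counts per kilobase (SD, n = 10), then Tnfrsf4 (245 ± 71.7), Il10 (167 ± 45.6) and Il2ra (112 ± 29.0). Ccr8 (53.9 ± 20.2), Il1rl1 (43.8 ± 20.3) and Foxp3 (41.9 ± 11.8) lay within 1 SD of each other: Ccr8 was above Il1rl1 in 7 of 10 tumors and Il1rl1 above Foxp3 in 6. Ikzf2 (28.1 ± 7.47), Izumo1r (23.3 ± 4.96) and Ikzf4 (16.4 ± 4.17) closed the order, with Ikzf2 also within 1 SD of Izumo1r. The upper members were separated more regularly, Tnfrsf18 from Tnfrsf4 in 9 of 10 tumors, Tnfrsf4 from Il10 in 8, Il10 from Il2ra in 9 and Il2ra from Ccr8 in all 10. With the longest transcript as the length, Il1rl1 (56.9) moved above Ccr8 (53.9) and Izumo1r (41.8) above Ikzf2 (35.1).

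**Figure D2:**
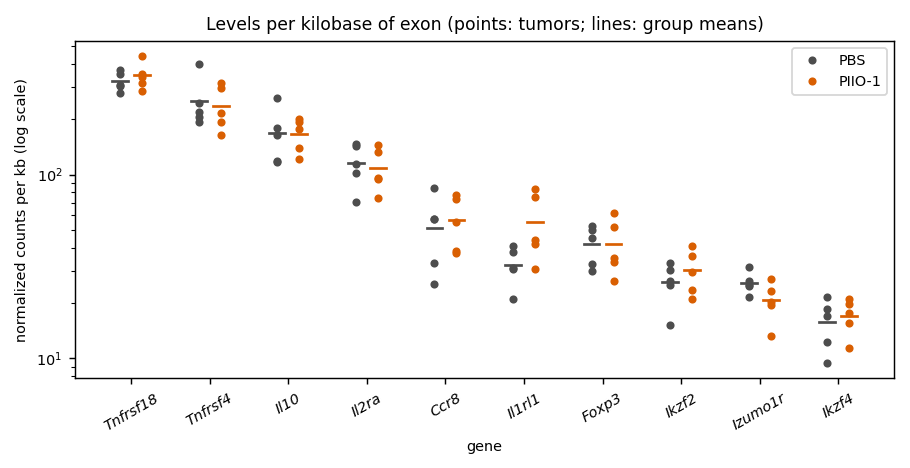
Levels of the 10 genes in normalized counts per kilobase of merged exon (y axis, log scale), in the order of their mean over 10 tumors. Points are single tumors and lines are group means: the groups interleave for every gene, with Il1rl1 farthest apart (32.3 in PBS and 55.2 in PIIO-1 tumors).

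Foxp3, which encodes the lineage factor itself, had group means that differed by far less than the spread between tumors. It lies on chromosome X, 7573644 to 7595245 (plus strand, GRCm38). Its values were 239.8, 227, 149, 137 and 208 normalized counts in PBS tumors 1 to 5 and 121, 161, 153, 238 and 282 in PIIO-1 tumors 1 to 5. PIIO-1 tumor 1 was the lowest and PIIO-1 tumor 5 the highest of all 10, so the treated group enclosed the control group. The means were 192 ± 46.3 and 191 ± 66.6 (SD, n = 5 each), a difference of -0.041 (SE 0.24, 95% interval -0.56 to 0.48, limma adjusted p = 0.985). That interval reaches from 1.48-fold lower to 1.40-fold higher. The difference was -0.20 when PIIO-1 tumor 5 was left out, 0.11 when PIIO-1 tumor 1 was, and -0.31 when both PIIO-1 tumor 5 and PBS tumor 4 were. Exons of Foxp3 overlap Flicr on its own strand and Ccdc22, Gm36995 and Ppp1r3f on the other, and because the strand setting of the counting is not given, reads shared with them cannot be told apart.

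The RefSeq promoter table (GRCm38.p6) held 9 start sites for 7 of the 10 members, and the 250 bases before each were searched on both strands for AGATAA, letters that GATA factors bind, and TTCNNNGAA, the core that STAT factors such as the IL-2-activated STAT5 bind. The motifs do not overlap each other in these windows. Of 32851 promoter windows in the table, 9.99% held AGATAA and 7.02% TTCNNNGAA. The downstream of the 2 listed Foxp3 starts (X, 7580483) was the single member window with both, TTCCAAGAA at 139 to 131 and AGATAA at 47 to 42 bases before the start. It is shown because Foxp3 defines the group; capitals mark the motifs. Tnfrsf18 held TTCACAGAA and Ccr8 TTATCT, the reverse complement of AGATAA, 1 match each.
Foxp3, chrX:7580233-7580482, plus strand: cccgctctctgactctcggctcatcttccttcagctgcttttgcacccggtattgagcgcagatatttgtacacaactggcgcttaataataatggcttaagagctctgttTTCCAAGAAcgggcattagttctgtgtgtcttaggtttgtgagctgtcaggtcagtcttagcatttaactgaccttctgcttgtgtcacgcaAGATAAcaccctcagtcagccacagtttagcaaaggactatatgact

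The Ikaros family genes Ikzf2 (Helios) and Ikzf4 (Eos), whose products act with Foxp3 in stabilising the regulatory programme, had overlapping groups. Ikzf2 (chromosome 1, 69531214 to 69687245, minus strand) held 289, 177, 306, 384 and 349.7 normalized counts in the PBS tumors, in order of number, and 245, 344, 274, 417 and 474 in the PIIO-1 tumors. Its PIIO-1 tumors 4 and 5 were above every control and PBS tumor 2 was the lowest. The difference was 0.22 (SE 0.23, 95% interval -0.27 to 0.72, limma adjusted p = 0.891), and 0.043 without PBS tumor 2. Ikzf4 (chromosome 10, 128630843 to 128645991, minus strand) held 129, 56.6, 73.5, 101 and 111 in PBS and 68.6, 106, 93.5, 126 and 119 in PIIO-1 tumors. PBS tumors 1 and 2 were its extremes, with every PIIO-1 value between them. The difference was 0.15 (SE 0.24, 95% interval -0.37 to 0.67, adjusted p = 0.936), and -0.019 without PBS tumor 2. Both genes have an exon overlap with an unnamed gene model on the opposite strand.

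Il2ra, which encodes the alpha chain of the high-affinity IL-2 receptor, ranged about 2-fold within each group. It lies on chromosome 2, 11642807 to 11693193 (plus strand), and held 821, 403, 656, 582 and 839 normalized counts in PBS tumors and 424, 541, 549.9, 829.8 and 762 in PIIO-1 tumors. Every PIIO-1 value fell between the lowest (PBS tumor 2) and the highest (PBS tumor 5) control. The difference was -0.081 (SE 0.22, 95% interval -0.57 to 0.41, limma adjusted p = 0.971), with a range of -0.25 (without PBS tumor 2) to 0.046 (without PIIO-1 tumor 1) when 1 tumor was left out.

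Tnfrsf18 (GITR) and Tnfrsf4 (OX40) encode costimulatory receptors of the tumor necrosis factor family and lie next to each other on chromosome 4, 9551 bases apart on the plus strand (Tnfrsf4 at 156013843 to 156016612, Tnfrsf18 at 156026164 to 156028895). Tnfrsf18 was the steadiest member, with 568, 463, 425, 468 and 540.0 normalized counts in PBS tumors and 433, 519, 483, 673 and 535 in PIIO-1 tumors. Its highest tumor was 1.59 times its lowest, and 1 PIIO-1 tumor (tumor 4) was above all controls. The difference was 0.093 (SE 0.12, 95% interval -0.17 to 0.35, limma adjusted p = 0.915), and 0.0019 without PIIO-1 tumor 4. Tnfrsf4 held 544, 281, 301, 265 and 336 in PBS tumors and 224, 297, 262, 431 and 406 in PIIO-1 tumors. PBS tumor 1 stood far above the other controls, and PIIO-1 tumors 1 and 3 were below all of them. The difference was -0.085 (SE 0.22, 95% interval -0.57 to 0.40, adjusted p = 0.970), and 0.091 without PBS tumor 1. An exon of Tnfrsf18 overlaps Gm16008 on the other strand.

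Ccr8, the chemokine receptor gene that marks tumor regulatory T cells in particular, was the member with the fewest reads in a tumor and had the widest interval. It lies on chromosome 9, 120092114 to 120094906 (plus strand). The PBS tumors held 99.3, 39.0, 67.0, 29.6 and 67.2 normalized counts and the PIIO-1 tumors 43.8, 64.6, 45.2, 86.8 and 90.8. All PIIO-1 values lay between the lowest and the highest control. The difference was 0.19 (SE 0.33, 95% interval -0.54 to 0.91, limma adjusted p = 0.945), an interval that reaches from 1.45-fold lower to 1.88-fold higher. It was -0.032 without PBS tumor 4 and -0.16 without PBS tumor 4 and PIIO-1 tumor 5.

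Izumo1r, which encodes the folate receptor FR4 of regulatory and anergic T cells, was lower in the PIIO-1 group by less than the test could separate. It lies on chromosome 9, 14885814 to 14903949 (minus strand), 15024 bases from Gpr83, another gene of regulatory T cells. Izumo1r held 58.3, 73.1, 49.8, 60.9 and 57.7 normalized counts in PBS tumors and 30.8, 53.8, 47.2, 45.5 and 62.6 in PIIO-1 tumors. Of the PIIO-1 tumors, 3 were below the lowest control and 1 (tumor 5) was above the PBS mean. The means were 60.0 ± 8.45 and 48.0 ± 11.7 (SD, n = 5 each), a difference of -0.34 (SE 0.19, 95% interval -0.76 to 0.083, limma adjusted p = 0.837). It remained negative in all 25 alternative fits (-0.56 to -0.19), and was -0.19 without PIIO-1 tumor 1. Gpr83 was under the filter, with 0 to 7.41 normalized counts, and was listed at 0 in 1 tumor of each group.

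Il10, the gene for an inhibitory cytokine that regulatory T cells share with myeloid and B cells, had its highest value in a tumor that was the lowest for 4 other members. It lies on chromosome 1, 131019845 to 131024974 (plus strand), and held 153, 343, 216, 156 and 235 normalized counts in PBS tumors and 160.2, 182, 262, 253 and 231 in PIIO-1 tumors. PBS tumor 2, the lowest tumor for Il2ra, Ikzf2, Ikzf4 and Il1rl1, was the highest for Il10 and for Izumo1r. The difference of Il10 was 0.021 (SE 0.22, 95% interval -0.47 to 0.51, limma adjusted p = 0.991). Leaving out 1 tumor gave -0.095 (without PBS tumor 1) to 0.20 (without PBS tumor 2).

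**Figure D3:**
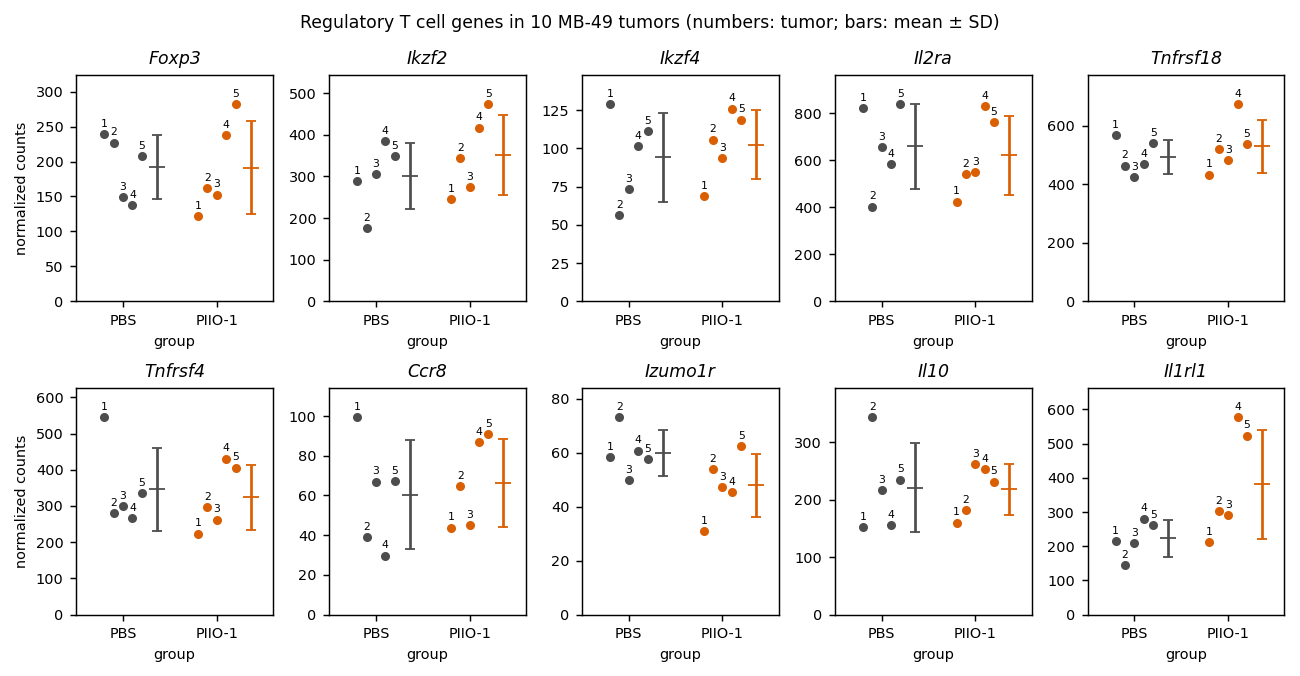
Normalized counts (y axes, from 0) of the 10 genes in each tumor, with the tumor's number beside its point and bars for mean ± SD of 5 tumors. The groups overlap in all 10 panels; for Il1rl1, 4 of 5 PIIO-1 tumors lie above the highest PBS tumor.

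Il1rl1 showed the largest difference of the 10 members. It encodes ST2, the receptor for the alarmin IL-33, which on regulatory T cells marks a tissue-repair subset. The gene lies on chromosome 1, 40429570 to 40465415 (plus strand). PBS tumors held 215, 145, 209.9, 281 and 262 normalized counts and PIIO-1 tumors 211, 302, 291, 577 and 524. PIIO-1 tumors 2 to 5 were all above the highest control, PIIO-1 tumor 1 was among the controls, and tumors 4 and 5 stood apart from the rest. The means were 223 ± 52.7 and 381 ± 159.7 (SD, n = 5 each), a difference of 0.70 (SE 0.27, 95% interval 0.11 to 1.30). Its unadjusted p by limma was 0.0245, and the p adjusted over all genes 0.837, so the gene was not called. Leaving out 1 tumor at a time gave 0.53 (PIIO-1 tumor 4 left out) to 0.89 (PIIO-1 tumor 1 left out), and omitting both PIIO-1 tumor 5 and PBS tumor 4 gave 0.66.

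The count of Il1rl1 adds up transcripts from 2 starts 10059 bases apart. In the known biology of this locus the distal start serves mast cells and T cells, the proximal one serves fibroblasts, and the soluble decoy form of ST2 arises from the same gene, none of which a gene count separates. The 250 bases before each start are printed because each held AGATAA on 1 of its strands, at 217 to 212 bases before the distal start and, as TTATCT, at 103 to 98 before the proximal one, shown in capitals. A match describes letters only and is not evidence of binding.
Il1rl1 distal start, chr1:40429320-40429569, plus strand: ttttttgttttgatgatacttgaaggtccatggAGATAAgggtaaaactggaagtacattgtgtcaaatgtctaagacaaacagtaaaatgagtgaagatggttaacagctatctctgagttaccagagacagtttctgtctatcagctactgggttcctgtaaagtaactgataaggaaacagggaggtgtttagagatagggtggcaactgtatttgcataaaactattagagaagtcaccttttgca
Il1rl1 proximal start, chr1:40439379-40439628, plus strand: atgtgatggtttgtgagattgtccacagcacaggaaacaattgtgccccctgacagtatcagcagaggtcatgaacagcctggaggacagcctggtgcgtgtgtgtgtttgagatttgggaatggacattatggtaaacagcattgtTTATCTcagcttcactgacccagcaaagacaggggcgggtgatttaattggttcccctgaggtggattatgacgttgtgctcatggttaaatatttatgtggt

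Several mast cell and basophil markers had their highest values in PIIO-1 tumors 4 and 5, where Il1rl1 was highest, and no marker was called. Some markers of other cell types peaked there too. They include the epithelial Cdh1 (1185 and 877, difference 0.72, SE 0.31) and the dendritic cell genes Ccr7 (0.47, SE 0.25) and Zbtb46 (0.47, SE 0.24). The macrophage gene C1qa and the epithelial Epcam did not. All 7 mast cell markers analysed were kept, and 7 of 7 had positive differences (median 0.80), with 1 at an unadjusted p under 0.05. Summed, they ranged from 4185 to 8627 normalized counts in PBS and from 4419 to 15529 in PIIO-1 tumors, and none was at 0 in any tumor. Ms4a2, the beta chain of the IgE receptor, held 39.2, 22.4, 40.0, 40.6 and 21.5 in PBS and 24.9, 79.3, 40.2, 158 and 222 in PIIO-1 tumors. The Ms4a2 difference was 1.28 (SE 0.53). Its 2 highest tumors, PIIO-1 tumors 4 and 5, were also those of Il1rl1. Fcer1a, the alpha chain of that receptor, differed by 0.80 (SE 0.41), or by 0.41 with PIIO-1 tumor 5 left out and 0.31 with PBS tumor 4 omitted too, again with its highest values there (56.1 and 124, against 17.2 to 27.6 elsewhere). Both kept basophil markers were positive, Cd200r3 at 0.96 (SE 0.43; 61.4 to 142 in PBS and 82.6 to 388 in PIIO-1 tumors) and Mcpt8 at 0.34 (SE 0.25; 0.16 without PIIO-1 tumor 4). The markers of type 2 innate lymphoid cells were split, 2 positive and 2 negative of the 4 kept (summed 286 to 467 in PBS and 325 to 536 in PIIO-1 tumors), with Il13 at 0.76 (SE 0.46) and Il5, under the filter, listed at 0 in PBS tumors 1 and 2. With the Ms4a2 level of each tumor as a covariate, an alternative chosen after the data were seen, the Il1rl1 difference was 0.16 (SE 0.20, adjusted p = 0.862 by limma). Ms4a2 itself differed by 1.28 between the groups, so this covariate can also take up part of a group difference. All 10 members had a lower difference in that fit, with a median of -0.22, but by unequal amounts. Il1rl1 moved most, from 0.705 to 0.156, followed by Ccr8, from 0.188 to -0.256. Tnfrsf18 moved less, from 0.093 to -0.059, and Il10 least, from 0.021 to 0.0029. Whether the shift of Il1rl1 exceeds that of the other members was not tested.

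The same 2 tumors carried more of the pan-leukocyte gene Ptprc (CD45), with 17239 and 17430 normalized counts against 7928 to 14609 in the other 8. With the Ptprc level as a covariate, Il1rl1 differed by 0.58 (SE 0.14, adjusted p = 0.420 by limma), and with the T cell gene Cd3e as the covariate by 0.79 (SE 0.25, adjusted p = 0.540). Foxp3 differed by -0.12 and 0.066 under those covariates and by -0.40 with the Ms4a2 level. B cell markers were positive in 4 of 4 cases (median 0.82), with a sum of 57.5 to 105 in PBS and 71.6 to 413 in PIIO-1 tumors, the highest in PIIO-1 tumor 5. The 4 red blood cell genes were positive in 4 of 4 cases, each with an unadjusted p under 0.05 by limma, and had the largest median of the marker lists (1.49). They summed to 5391 to 12610.5 in PBS and 8220 to 57610 in PIIO-1 tumors, and PIIO-1 tumors 4 and 5 had the highest globin shares of reads (0.0745% and 0.180%). The part of mast cell, basophil, B cell, other leukocyte and red blood cell content in the Il1rl1 result was not tested.

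**Figure D4:**
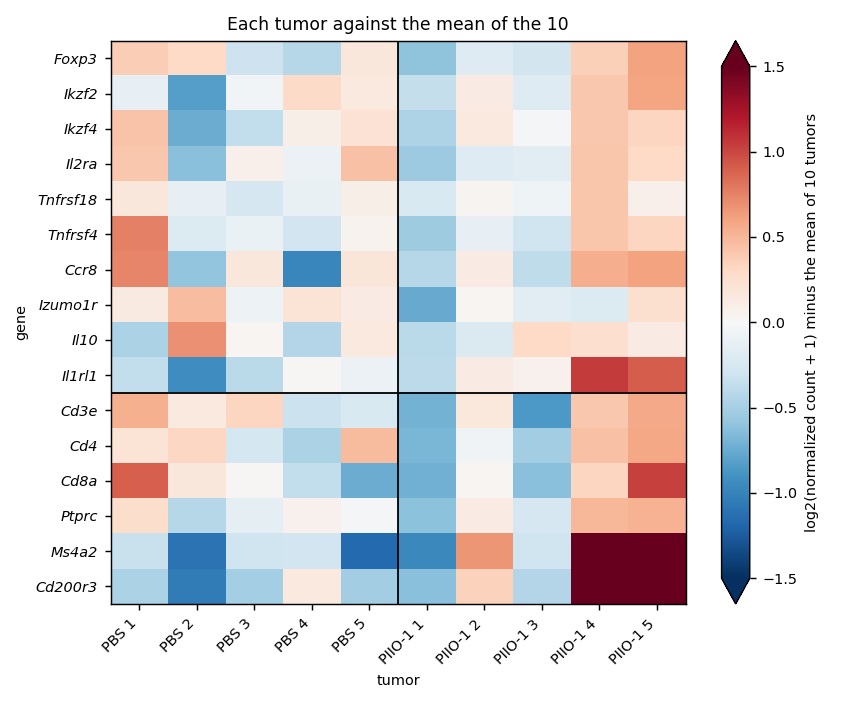
Each tumor's log2(normalized count + 1) minus the mean of the 10 tumors (colour) for the 10 members (above the line) and 6 comparison genes (below), with PBS tumors left and PIIO-1 tumors right of the vertical line. PIIO-1 tumors 4 and 5 are high for Il1rl1, Ms4a2 and Cd200r3, and PIIO-1 tumor 1 is low for every row; colours saturate beyond 1.5.

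For Foxp3 relative to other T cell transcripts, no difference between the groups was detected, which with 5 tumors per group does not show that there is none. Per tumor, the ratio of Foxp3 to Cd4 was 0.557, 0.488, 0.479, 0.512 and 0.397 in PBS and 0.521, 0.447, 0.585, 0.470 and 0.504 in PIIO-1 tumors, with means of 0.487 ± 0.0583 and 0.505 ± 0.0529 (SD). The log2 difference was 0.057 (exact two-sided permutation p = 0.611). Foxp3 to Cd8a, a transcript ratio that echoes the ratio of regulatory to cytotoxic T cells, was 0.348 ± 0.150 and 0.319 ± 0.0655, a log2 difference of -0.055 (exact permutation p = 0.873). Its highest value was that of PBS tumor 5 (0.601), without which the difference was 0.17. Foxp3 to Cd3e was 0.866 ± 0.221 and 0.948 ± 0.237, a log2 difference of 0.14 (exact permutation p = 0.579). The adjusted p was 0.873 for each of the 3 ratios, and the smallest p this design can give is 0.00794.

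Among the 12 relations computed for Foxp3, that with Cd4 had the highest r. Of 17 relations computed on the log2 scale, 7 had an adjusted p under 0.05 by Pearson's r (100000 permutations, Benjamini-Hochberg over the 17) and 8 with values centred on the group means. Foxp3 with Cd4 gave r = 0.94 (permutation p = 1.6e-04, adjusted p = 0.00272) and rho = 0.85 (permutation p = 0.00293, adjusted p = 0.0369). Without PIIO-1 tumors 1 and 5, the ends of the Foxp3 range, r was 0.90 (adjusted permutation p = 0.0790). Its relations with Cd8a (r = 0.75, rho = 0.78, adjusted permutation p of 0.0399 and 0.0376) and Cd3e (r = 0.73, rho = 0.78, adjusted permutation p of 0.0466 and 0.0376) fell to r = 0.56 and 0.55 without those tumors. Leaving out the ends of a range weakens a relation by itself, so this fall does not show that the relations rest on those tumors.

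Among the members, Foxp3 went with Tnfrsf4 (r = 0.81, permutation p = 0.0040, adjusted p = 0.0178; rho = 0.82, adjusted p = 0.0369), though at 0.74 without PIIO-1 tumors 1 and 5 the adjusted p was 0.133. With Tnfrsf18 r was 0.69 (adjusted permutation p = 0.0519) and with Ccr8 0.67 (adjusted permutation p = 0.0746), where rho (0.73 and 0.75) had an adjusted permutation p of 0.0433 for both. Izumo1r (0.58), Il2ra (0.56), Ikzf4 (0.44), Il10 (0.43), Il1rl1 (0.37) and Ikzf2 (0.25) followed by r, with adjusted permutation p between 0.115 and 0.524, and with rho of 0.25 to 0.67 (adjusted permutation p between 0.0673 and 0.555). Every relation of Foxp3 had a higher r within PIIO-1 than within PBS tumors. Each such r rests on 5 tumors, and all share the same Foxp3 values. PIIO-1 tumors 1 and 5 are the ends of the Foxp3 range, and a wider range can raise r. The gap between the groups was not tested. The gap was small for Cd4 (0.97 against 0.90) and wide for Il2ra (0.95 against 0.078). For Ikzf2 (0.97 against -0.58) and Il1rl1 (0.97 against -0.51) the sign differed. Ikzf2 with Ikzf4 gave r = 0.80 (permutation p = 0.0042, adjusted p = 0.0178; rho = 0.67, adjusted p = 0.0673), and 0.61 without PBS tumor 2 and PIIO-1 tumor 5. The neighbours Tnfrsf18 and Tnfrsf4 gave r = 0.78 (permutation p = 0.0080, adjusted p = 0.0272; rho = 0.75, adjusted p = 0.0433). Theirs was the 1 relation of the 17 to stay under 0.05 without its 2 outermost tumors, PBS tumor 3 and PIIO-1 tumor 4 (r = 0.90, adjusted permutation p = 0.0194).

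Il1rl1 followed Ms4a2, the IgE receptor gene of the mast cell list (r = 0.89, permutation p = 0.0014, adjusted p = 0.0123; rho = 0.82, adjusted p = 0.0369; r = 0.83 centred on the group means, adjusted p = 0.0194). Within the groups r was 0.36 in PBS and 0.95 in PIIO-1 tumors, over 5 tumors each. The PBS tumors covered a narrower range of both genes, and whether the relation differs between the groups was not tested. Without PIIO-1 tumors 4 and 5, the farthest from the Il1rl1 median, r with Ms4a2 was 0.59 (adjusted permutation p = 0.249), over fewer tumors and a narrower range. With Gata3, a factor of type 2 lymphocytes, r was 0.26 (rho = 0.091, adjusted permutation p of 0.524 and 0.810), and with the endothelial gene Cdh5 0.020 (rho = -0.15, adjusted permutation p of 0.957 and 0.727). Il1rl1 with Gata3 gave r = -0.59 within PBS and 0.83 within PIIO-1 tumors. Its relation with the mast cell protease gene Cpa3 was planned and not analysed here.

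**Figure D5:**
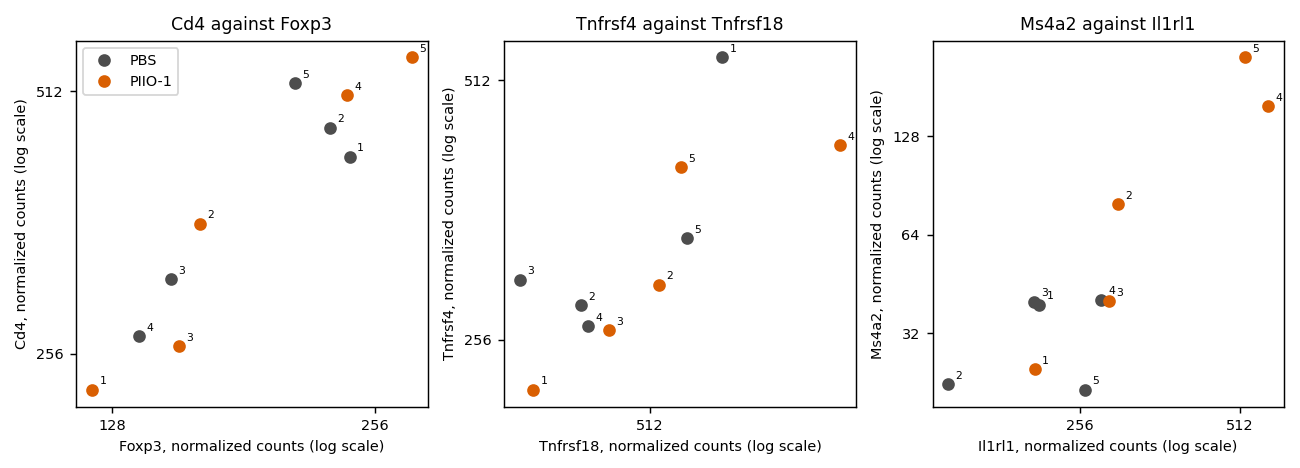
Levels in 10 tumors (log-scaled axes, normalized counts) of Cd4 against Foxp3, Tnfrsf4 against Tnfrsf18 and Ms4a2 against Il1rl1, with tumor numbers beside the points. Both groups lie along 1 band for Foxp3 and Cd4 (r = 0.94), and PIIO-1 tumors 4 and 5 form the upper end for Il1rl1 and Ms4a2.

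The genes whose pattern over the 10 tumors was most like each member's were ranked by r among the kept genes with a name, members left out, as a description of shared tumors, depth and cell content. Foxp3 was nearest to Tex14 (r = 0.97), Cd4 (0.94) and Ctla4 (0.94), the last a checkpoint receptor gene with a difference of -0.0069 (SE 0.25). Il1rl1 was nearest to Rab44 (0.99), Sowahc (0.98) and Tiam1 (0.98). Rab44 had a difference close to that of Il1rl1, at 0.61 (SE 0.22). Ikzf2 was nearest to Cd83 (0.98), an activation marker of dendritic cells, then Cyp4f18 (0.97) and Cbfa2t3 (0.96). Ikzf4 was nearest to Unc119 (0.96), Il2ra to Trp53i11 (0.97), Tnfrsf4 to Gsap (0.97), Ccr8 to Rnf128 (0.97) and Tnfrsf18 to H2-T-ps (0.94). Izumo1r (Accs, 0.90) and Il10 (Dzank1, 0.89) had the weakest nearest neighbours. Each neighbour was picked as the highest r of that search over 10 tumors. No chance level was computed, so a high r here is not by itself a sign of likeness.

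Ligands and partner chains of the member receptors were measured as 11 genes, of which 9 were kept. None was called, 5 were positive and 4 negative, and their median difference was 0.081. Il33, the ligand of ST2, held 19.8 to 53.5 normalized counts in PBS tumors and 3.02 to 57.7 in PIIO-1 tumors. Its difference was -0.47 (SE 0.65), and 0.18 without PIIO-1 tumor 3. Il1rap, the second chain of the ST2 receptor, differed by 0.12 (SE 0.084). For the IL-2 receptor, Il2rb differed by -0.10 (SE 0.20) and Il2rg by -0.065 (SE 0.077), and Il2 itself was under the filter at 4.08 to 19.1 normalized counts.

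Of the CCR8 ligands, Ccl1 held 2.45 to 24.1 in PBS and 9.08 to 29.6 in PIIO-1 tumors (0.65, SE 0.50; 0.26 without PBS tumor 3 and 0.97 without PBS tumor 5). Ccl8 differed by -0.30 (SE 0.41), and by -0.57 without PBS tumor 4 or -0.083 without PIIO-1 tumor 1. Tnfsf4, the OX40 ligand gene, differed by 0.19 (SE 0.23), while the GITR ligand gene Tnfsf18 was under the filter at 2.01 to 9.80. The IL-10 receptor chains differed by 0.14 (Il10ra, SE 0.21) and 0.081 (Il10rb, SE 0.10).

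Genes for Foxp3 partners and regulators, such as Runx1, Gata3 and Stat5b, gave 0 calls among 16, with 13 positive, 3 negative and a median of 0.074. The smallest p-values in that list were those of Stat5a (0.12, SE 0.072), which carries the IL-2 signal, and Ikzf3 (0.27, SE 0.22), which encodes Aiolos. Of 18 other effector and surface genes of regulatory T cells 17 were kept and 0 called, with 9 positive, 8 negative and a median of 0.054. Areg, the gene for the growth factor amphiregulin that ST2-bearing cells release in tissue repair, was the 1 gene of the 3 lists with an unadjusted p under 0.05. It held 61.1, 65.3, 92.3, 59.3 and 82.7 normalized counts in PBS and 73.6, 72.4, 109, 130.2 and 188 in PIIO-1 tumors, with 3 treated tumors above every control. The difference of Areg was 0.59 (SE 0.26, limma adjusted p = 0.837), and 0.39 without PIIO-1 tumor 5. Tnfrsf9 (4-1BB), another costimulatory receptor gene, differed by 0.22 (SE 0.12). T cell markers as a whole were 2 positive and 11 negative of 13, with a median of -0.063 and 0 called, and sums of 4127 to 8079 in PBS and 3098 to 8581 in PIIO-1 tumors.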

How the data were processed

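The authors deposited 1 table of normalized counts (a signal of 0 or more) for 24202 gene symbols in 10 tumors. HISAT2, featureCounts and DESeq2 with build GRCm38 are named in the submitters' processing notes; no version, annotation or strand setting is given in the sources used here. Dividing each column by its smallest step gave whole reads for 100% of values (within 0.001 read). Between libraries the chi-square per gene was at least 10.7, so none repeats another.

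Values were analysed as log2(value + 1) with limma 3.58.1 (intensity trend, 16767 genes with a mean of at least 10, two-sided, Benjamini-Hochberg over all genes, threshold 0.05); such differences understate changes of low genes. Groups came from the treatment label. edgeR 4.0.16 and DESeq2 1.42.0 on the recovered reads were alternatives, beside pseudocounts of 0.5 and 5, no filter, a minimum mean of 50, TMM and upper-quartile scaling, no trend, array weights, a replicate block, Cd3e or Ptprc as covariate, each tumor left out, and PIIO-1 tumor 5 with PBS tumor 4 left out. The Ms4a2 covariate was added after the data were seen. The fit was tested on simulated data. The permutation tests of ratios and relations used numpy 2.4.6, and ranks and the r within groups used scipy 1.17.1.

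The members and all gene lists were chosen with earlier results of these data known. Genes named are the members, Cd3e, Cd4, Cd8a and Ptprc, ligands and partner receptors, the partner genes with an unadjusted p under 0.05 or otherwise the 2 with the smallest p in each list, the 2 markers with the smallest p in each cell type list and those listed at 0, and the 3 genes with the highest r with each member; not all are printed. Marker lists covered leukocytes, T cells, mast cells, basophils, type 2 innate lymphoid cells, NK cells (0 of 4 positive, median -0.071), B cells, macrophages (4 of 5 positive, 0.096), dendritic cells (3 of 4, 0.42), endothelium (3 of 4, 0.10), fibroblasts (2 of 4, 0.0011), epithelium and urothelium (4 of 6, 0.086) and red blood cells (4 of 4, 1.49), with 0 genes called in any. Coordinates are those of GENCODE M21 on GRCm38, in which 99.1% of symbols matched 1 gene. Promoter sequences are RefSeq's.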

Additional observations from a re-analysis of the deposited data

Results flagged for a closer look

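Tnfrsf4 in PBS tumor 1 stood apart from the other controls. It was at 544 normalized counts, where the other 4 PBS tumors held 265 to 336, and the gap to the nearest was 0.747 of the group's range, above Dixon's critical value for 5 samples. Of 26 groups of values examined this was the 1 that met the criterion, and chance flags about 1 in 20. PBS tumor 1 was also the highest tumor for Ikzf4 and Ccr8.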

How the results depend on the processing

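No member was called under any of 25 alternative settings, and Il1rl1 (0.16 to 0.89) and Izumo1r (-0.56 to -0.19) kept their sign in all of them; the other 8 members changed sign in at least 1. DESeq2 called 3 genes in the whole table. With both PIIO-1 tumor 5 and PBS tumor 4 omitted, the sign turned for Ccr8 (-0.16), Il10 (-0.12), Cd8a (-0.33) and the Foxp3 to Cd8a ratio (0.022). With the Ms4a2 covariate, chosen after the data were seen, it turned for Ccr8 (-0.26), Ikzf2 (-0.19), Ikzf4 (-0.18) and Tnfrsf18 (-0.059), and the members' median was -0.22. With the Cd3e covariate it turned for Foxp3 (0.066), Tnfrsf4 (0.020) and Cd4 (0.020), with the Ptprc covariate for Cd8a (-0.11), with array weights for Cd8a (-0.052) and Il10 (-0.022), and on recovered reads for Il10 (-0.022 by DESeq2, -0.030 by edgeR). Leaving out 1 tumor gave -0.0026 to 0.25 for the log2 ratio of Foxp3 to Cd3e, -0.014 to 0.11 for Foxp3 to Cd4 and -0.19 to 0.17 for Foxp3 to Cd8a. Differences then ran from -0.20 to 0.11 for Foxp3, -0.25 to 0.046 for Il2ra, -0.019 to 0.28 for Ikzf4, -0.032 to 0.40 for Ccr8, -0.20 to 0.091 for Tnfrsf4, -0.095 to 0.20 for Il10, -0.34 to 0.017 for Cd3e, -0.25 to 0.061 for Cd4, -0.24 to 0.24 for Cd8a, -0.0094 to 0.27 for Ptprc, -0.0010 to 0.30 for Il10ra, -0.23 to 0.053 for Il2rb and -0.79 to 0.18 for Il33; those of Tnfsf4 (0.036 to 0.29), Il1rap (0.078 to 0.18), Il10rb (0.025 to 0.16), Ikzf3 (0.15 to 0.44) and Tnfrsf9 (0.11 to 0.28) kept their sign. Without the 2 outermost tumors 1 relation stayed past the threshold, and Foxp3 with Ikzf2 (r = -0.22) and Il1rl1 with Gata3 (r = -0.68) changed sign, as did Il1rl1 with Cdh5 on centred values (r = -0.25). The cause of these shifts was not tested.

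Tumors of the 2 groups share replicate numbers in their titles but same-numbered tumors did not deviate together (correlations of -0.21, -0.13, 0.095, -0.021 and 0.024). These values gave no sign of pairing but cannot exclude that same-numbered tumors were handled together. With the replicate number as a block, limma called 0 genes (885 at an unadjusted p under 0.05), and no PIIO-1 tumor correlated best with the PBS tumor of its own number. The block lowered the SE of Il1rl1 from 0.27 to 0.17 (limma unadjusted p = 0.0046, adjusted p = 0.904) and raised that of Ccr8 from 0.33 to 0.38. Ccr8 and Izumo1r had the fewest reads of the members, with 19 to 104 and 31 to 75 per tumor. The SE of Izumo1r (0.19) was below that of Foxp3 (0.24), which had 88 to 311 reads.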
